A study of Mus musculus with 12 samples.

Results

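The Ras and ERK cascade core genes are 7 mouse genes whose transcripts were followed in MSCs, mesenchymal stem cells from bone marrow: the Ras GTPase genes Hras and Nras, the RAF kinase genes Araf and Braf, the MEK genes Map2k1 and Map2k2, and Mapk3, which encodes Erk1. They were chosen by gene symbol, as genes of the pathway whose proteins the study followed, out of 55401 genes in the table, and that Map2k1 rose with M-MDSC supernatant was already known when they were chosen. All 7 passed the filter on low values and were among the 12016 genes tested. The study asked whether culture supernatant of MDSCs, myeloid-derived suppressor cells, alters the response of MSCs to TGF-β1, the growth factor that drives them towards myofibroblasts. The C57BL/6 bone marrow MSCs, bought from a supplier, were left untreated, treated with TGF-β1 at 5 ng/mL, or treated with TGF-β1 together with supernatant of monocytic (M-MDSC) or granulocytic (G-MDSC) cells. The MDSCs were sorted from bone marrow cultures. No group received supernatant without TGF-β1, so an effect of the supernatants on resting MSCs was not measured. None is described as given TGF-β1 with MDSC medium that had held no cells. An effect of that medium therefore cannot be told apart from one of what the MDSCs released. Poly(A) RNA of 3 libraries per group was sequenced. By the study's legend for the experiments on differentiation, MSCs were kept in the supernatants with TGF-β1 for a day. The labels do not say whether the 3 libraries of a group came from separate cultures, so the p-values measure only the spread between these libraries.

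In the cascade, receptors and their adaptors load Ras with GTP, Ras recruits RAF kinases to the membrane, RAF phosphorylates MEK, and MEK phosphorylates ERK, which enters the nucleus. In fibroblasts and MSCs the cascade is known for its part in proliferation and for cross-talk with the Smad proteins that carry the TGF-β1 signal. Most of its control lies in GTP loading and phosphorylation, which transcript levels do not measure, and protein data were not analysed here.

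Of the 7 genes, Map2k1 rose with TGF-β1 and was higher again with each supernatant, Mapk3 fell with TGF-β1, and the other 5 passed the test in none of the comparisons. Map2k1 went from 24.8 ± 1.09 FPKM (fragments scaled to exon length in kilobases and to library size, mean ± SD, n = 3) in untreated MSCs to 31.8 ± 1.12 with TGF-β1, 43.9 ± 0.903 when M-MDSC supernatant was added and 41.9 ± 1.59 when G-MDSC supernatant was. Mapk3 went from 45.6 ± 1.67 to 29.7 ± 1.87, 27.0 ± 0.987 and 28.7 ± 0.313 FPKM in the same order. A gene was called where the quasi-likelihood F test of edgeR gave an adjusted p-value under 0.05. With TGF-β1 against untreated MSCs, 1 member was called higher and 1 lower of 7, where 34% of all genes tested were called. Against TGF-β1 alone, 1 of 7 was called with M-MDSC supernatant, where 4.78% of all genes were, and 1 of 7 with G-MDSC supernatant, where 5.56% were. Between the supernatants, edgeR called 0 of 7, where 0.125% of all genes were called. At an unadjusted p-value under 0.05 in edgeR it was also 0 of 7, beside 761 of 12016 genes. DESeq2 and limma called 0 members as well, beside 121 genes in DESeq2 and 39 in limma on log2(FPKM + 1). The comparisons of each supernatant group with untreated MSCs called 2 of 7, with a background of 35.2% for M-MDSC and 34.8% for G-MDSC supernatant. The median log2 fold change of the members was -0.01 with TGF-β1, -0.02 with M-MDSC and 0.02 with G-MDSC supernatant, beside 0.00, -0.01 and -0.01 over all genes tested. The study's own rule, which asks for an unadjusted p-value under 0.05 and a fold change of more than 2 or less than 0.5, took 0 of the 7 in every comparison. It took 6.74% of all genes with TGF-β1, 2.18% with M-MDSC and 2.17% with G-MDSC supernatant, and 0.549% between the supernatants. For the supernatant groups against untreated MSCs it took 6.98% and 6.8%. Both supernatant comparisons use the same 3 TGF-β1 libraries.

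**Figure D1:**
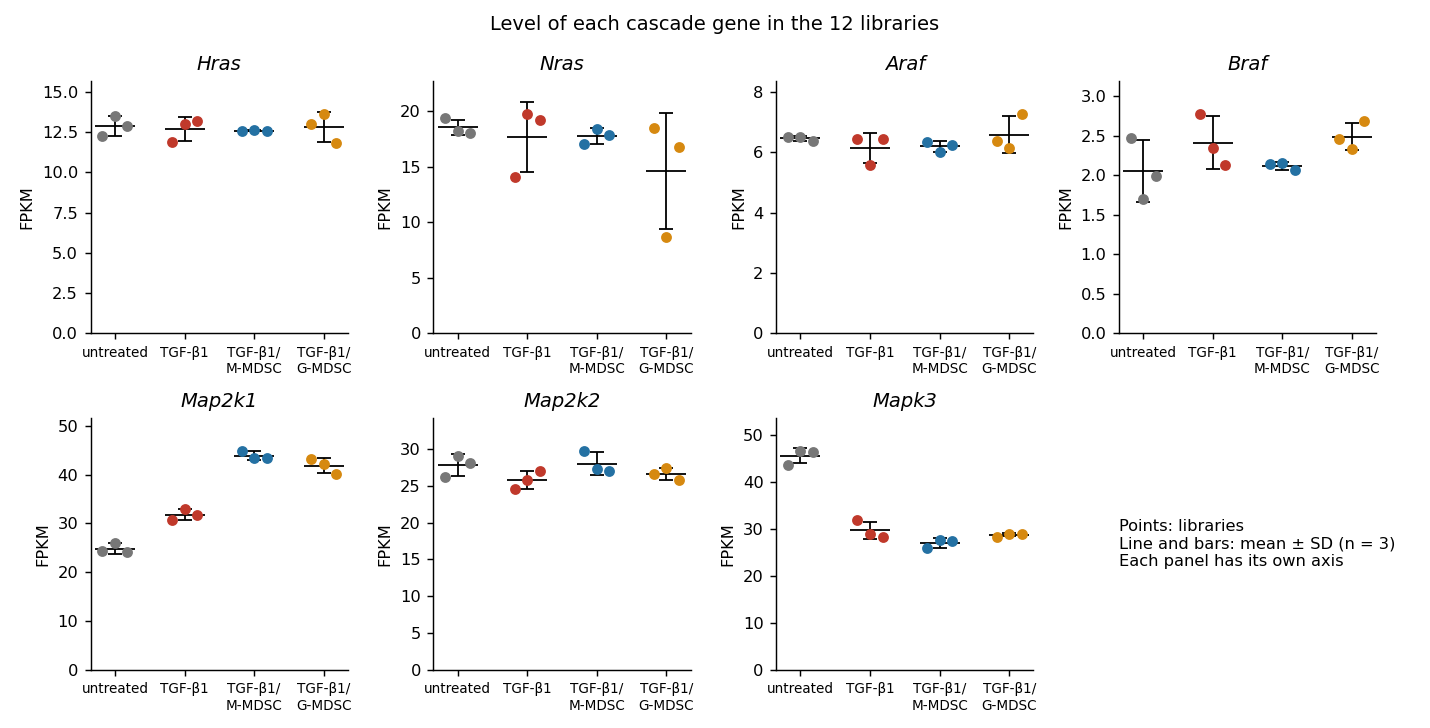
FPKM (vertical axis, starting at 0, with its own range for each gene) of the 7 cascade genes in the 12 libraries, by group; points are libraries and black lines and bars are mean ± SD, n = 3. Map2k1 steps up from 24.8 to 31.8 FPKM with TGF-β1 and to over 40 FPKM in every supernatant library, Mapk3 drops from 45.6 to 29.7 FPKM with TGF-β1, and Nras has 1 low TGF-β1/G-MDSC library at 8.63 FPKM.

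Each library held from 73977669 to 84565450 counts, and the members had from 2195 counts (Braf) to 15385 counts (Map2k2) in a library. Low counts piled up at multiples of 4, with 44.3% of those from 1 to 12 at 4, 8 or 12, and the larger counts may also stand for fewer independent fragments than their size. FPKM are divided by the exon length of the gene with its transcripts merged, from 2.26 kb for Mapk3 to 13.9 kb for Braf. In untreated MSCs the order by FPKM was Mapk3, Map2k2, Map2k1, Nras, Hras, Araf and Braf. The length used decides part of this order. Per kilobase of the longest principal protein-coding transcript (a length chosen after the data were seen), Map2k2 came first at 73.0 ± 3.98 on the same scale, before Mapk3 at 63.8 ± 2.34 and Map2k1 at 38.6 ± 1.74, with Nras at 24.7 and then Araf, Hras at 19.0 and Braf at 3.27. Fold changes of a gene do not depend on its length. They were computed with scaling factors of 0.978 to 1.03, so they can differ by a few percent from the ratio of the mean FPKM.

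All 8 markers of MSCs had counts in every group, with a summed 500.2 to 598.2 FPKM. Itgb1 gave the largest part of this sum, at 247 to 394 FPKM. Eng stayed at 0.635 to 0.968 FPKM and was not tested, and Nt5e had 0.321 to 0.505 FPKM in untreated MSCs. Of the 7 markers tested, 4 rose with TGF-β1 and 3 fell. Among them Ly6a, which encodes Sca-1, went from 245 FPKM to 16.2 with TGF-β1 and stood at 92.5 with M-MDSC and 66.9 with G-MDSC supernatant, 2.49 and 2.02 above TGF-β1 on the log2 scale (adjusted p = 2.38e-07 and 1.54e-06 in edgeR). Against TGF-β1, 1 of the 7 was called higher and 1 lower with M-MDSC supernatant, and 3 higher and 1 lower with G-MDSC supernatant. The lower one was Pdgfrb in both (-0.24, adjusted p = 0.0104, and -0.41, adjusted p = 0.000269), and Nt5e (0.69, adjusted p = 0.0130) and Pdgfra (0.35, adjusted p = 0.0296) were the other 2 higher with G-MDSC supernatant. Of 4 markers reported absent from MSCs, Kit had at most 10 counts, Ptprc at most 26 and Pecam1 40 to 120, whereas Cd34 had 7480 to 44870 counts, most of them in untreated MSCs, and was lower with G-MDSC supernatant than with TGF-β1 alone (-0.43, adjusted p = 0.0298). Transcripts of kidney tubule cells were the other group that set libraries apart. The summed level of 8 such genes was 0.361 to 0.593 FPKM in the 6 libraries without supernatant, 12.5 to 79.1 with M-MDSC supernatant and 43.7 to 57.6 with G-MDSC supernatant. With supernatant most of this sum was 1 gene, Kap, at 9.20 to 69.2 FPKM with M-MDSC and 37.1 to 51.2 with G-MDSC supernatant, and without supernatant most of it was Cubn. Kap, Slc22a6, Slc34a1 and Umod had 0 counts in all libraries without supernatant and 45 to 4246 counts with it, and Miox and Slc12a1 had at most 8 counts without it and 40 to 327 with it. Lrp2 had 27 to 137 counts without supernatant and 137 to 457 with it, whereas Cubn had 0.339 to 0.477 FPKM without and 0.315 to 0.479 FPKM with it. Of 12 myeloid genes, the neutrophil granule genes Elane and Mpo were at 0 in every group, and the summed level was 4.20 to 4.38 FPKM in untreated MSCs, 1.17 to 1.25 with TGF-β1, 2.05 to 4.45 with M-MDSC and 3.41 to 6.98 with G-MDSC supernatant. In untreated MSCs most of it was Ly6g at 1.83 and Ly6c2 at 1.71 FPKM. Of the 12 genes only 4 passed the filter, and of these 1 was called higher and 2 lower with TGF-β1. Ly6g and Ly6c2 fell, whereas Csf1r had 0.525 to 0.779 FPKM in the untreated libraries and 1.01 to 1.06 with TGF-β1. Lyz2, a lysozyme gene of myeloid cells and the 1 of those 4 called with the supernatants, had 0.0573 FPKM with TGF-β1, 1.54 ± 0.828 with M-MDSC and 1.87 ± 0.281 with G-MDSC supernatant (adjusted p = 0.0262 and 0.0183 in edgeR). Among the untested genes, S100a9 had 0 counts in all libraries without supernatant and 12 to 160 counts in 4 of the 6 with it, and Itgam had at most 1 count without and up to 42 with supernatant.

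Neither Ras gene passed the test in any comparison. Hras (ENSMUSG00000025499, GRCm38, chr7:141189105-141194005, minus strand), a GTPase at the head of the cascade, had 12.2, 13.5 and 12.9 FPKM in the untreated libraries and 11.9, 13.0 and 13.2 with TGF-β1. It had 12.6, 12.7 and 12.6 FPKM with M-MDSC and 13.0, 13.6 and 11.8 with G-MDSC supernatant. The 4 groups overlapped throughout. The log2 fold change of Hras was 0.04 with TGF-β1 (95% confidence interval -0.10 to 0.18, adjusted p = 0.704), -0.03 with M-MDSC supernatant (-0.17 to 0.11, adjusted p = 0.854) and -0.01 with G-MDSC supernatant (-0.15 to 0.13, adjusted p = 0.960). A rise of Hras beyond 13.0% with TGF-β1 lies outside the interval of the test.

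Nras (ENSMUSG00000027852, chr3:103058285-103067914, plus strand), the other Ras gene, had 19.4, 18.2 and 18.0 FPKM in untreated MSCs, 14.0, 19.8 and 19.3 with TGF-β1, and 17.1, 18.4 and 17.8 with M-MDSC supernatant. With G-MDSC supernatant it had 18.5, 8.63 and 16.8 FPKM. Of the 12 libraries, 10 lay between 16.8 and 19.8 FPKM, and the low ones were TGF-β1 replicate 1 and TGF-β1/G-MDSC replicate 2, which had 4048 counts. The pseudogene Nras-ps2 had 0 counts in every library. With these 2 libraries in, the log2 fold change with G-MDSC supernatant was -0.30 with an interval of -0.81 to 0.21 (adjusted p = 0.598). Leaving out single libraries moved it from -0.50 without TGF-β1/G-MDSC replicate 1 to -0.03 without TGF-β1/G-MDSC replicate 2, and it was not called in any of these fits. Without both low libraries it was -0.17 (adjusted p = 0.271), and the cause of the low values was not tested. With TGF-β1 against untreated MSCs it was -0.01 (-0.52 to 0.50, adjusted p = 0.983), and with M-MDSC supernatant -0.02 (-0.53 to 0.50, adjusted p = 0.987), so that a moderate change of Nras in either direction was not detectable.

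The RAF kinases, which Ras recruits and which phosphorylate MEK, are represented by Araf and Braf, which had the lowest FPKM of the 7 genes, though Araf exceeded Hras per kilobase of principal transcript. Araf (ENSMUSG00000001127, chrX:20797814-20860519, plus strand) had 6.53, 6.50 and 6.37 FPKM in untreated MSCs and 6.44, 5.58 and 6.44 with TGF-β1. It had 6.34, 6.00 and 6.26 FPKM with M-MDSC and 6.37, 6.13 and 7.28 with G-MDSC supernatant. The libraries of Araf overlapped in every comparison but that of M-MDSC supernatant with untreated MSCs. There all were lower (-0.03, adjusted p = 0.817 in edgeR), and 47.4% of all genes tested did not overlap. The log2 fold change of Araf was -0.01 with TGF-β1 (standard error 0.073, adjusted p = 0.916), -0.01 with M-MDSC (adjusted p = 0.959) and 0.07 with G-MDSC supernatant (adjusted p = 0.712).

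Braf (ENSMUSG00000002413, chr6:39603237-39725463, minus strand), the RAF kinase with the highest basal activity, had 2.47, 1.70 and 1.99 FPKM in untreated MSCs and 2.78, 2.34 and 2.12 with TGF-β1. It had 2.14, 2.16 and 2.06 FPKM with M-MDSC and 2.45, 2.34 and 2.68 with G-MDSC supernatant. The untreated libraries spread widest, and every M-MDSC library lay below every G-MDSC library. The log2 fold change of Braf with TGF-β1 was 0.29 (0.00 to 0.58, adjusted p = 0.117), and without untreated replicate 1, the highest of that group, it was 0.43 with an adjusted p-value of 0.0167 in edgeR. Against untreated MSCs, G-MDSC supernatant gave 0.31 (adjusted p = 0.0939), and without the same library 0.46 (adjusted p = 0.0120). M-MDSC supernatant gave -0.21 against TGF-β1 (-0.50 to 0.08, adjusted p = 0.471) and -0.23 against G-MDSC supernatant (-0.52 to 0.06, adjusted p = 0.884). The 3′ end of Braf overlaps Ndufb2 on the opposite strand by 146 bases, and whether the authors counted by strand is not given in the sources used here.

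MEK1 and MEK2, the kinases encoded by Map2k1 and Map2k2, are close relatives that both phosphorylate ERK. A read without errors fits both genes equally only where their sequences are the same over its whole length. How reads were assigned to the 2 genes was not tested. The coding sequences of the principal transcripts in GENCODE M21 are identical at 79.1% of 1172 aligned bases. Their longest run in common, in the coding or the untranslated parts, is 56 bases, beside reads of 150 bases before any trimming. That run is shown with 10 bases on each side, with the differing bases in capitals, because the counts of these genes part ways below.
Map2k1, coding bases 381 to 456: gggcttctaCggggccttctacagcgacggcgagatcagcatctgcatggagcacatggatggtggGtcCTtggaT
Map2k2, coding bases 393 to 468: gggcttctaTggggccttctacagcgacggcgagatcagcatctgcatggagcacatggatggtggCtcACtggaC
The 2 stretches differ at 5 of 76 bases. For Hras and Nras the longest shared run was 23 bases, and for Araf and Braf 17 bases.

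Map2k1 (ENSMUSG00000004936, chr9:64185770-64253631, minus strand) had 24.3, 26.1 and 24.1 FPKM in untreated MSCs and 30.7, 32.9 and 31.7 with TGF-β1. It had 44.9, 43.3 and 43.4 FPKM with M-MDSC supernatant and 43.3, 42.2 and 40.1 with G-MDSC supernatant. All TGF-β1 libraries lay above all untreated libraries, and all supernatant libraries above both groups. With TGF-β1 it rose by 0.41 on the log2 scale (standard error 0.047, adjusted p = 5.19e-05), or 1.33-fold with an interval of 1.24 to 1.43. M-MDSC supernatant added 0.44 over TGF-β1 alone (standard error 0.047, adjusted p = 0.000216), or 1.36-fold (1.26 to 1.46), the comparison that was known when the genes were chosen. G-MDSC supernatant added 0.37 (standard error 0.047, adjusted p = 0.000809), or 1.29-fold (1.20 to 1.39). Against untreated MSCs the rise came to 1.81-fold with M-MDSC (adjusted p = 2.17e-07) and 1.72-fold with G-MDSC supernatant (adjusted p = 4.56e-07). Between the supernatants the difference was 0.07 (-0.03 to 0.18, adjusted p = 0.911), with every M-MDSC library above every G-MDSC library, though the nearest of them differed only in the second decimal of FPKM. The interval bounds the excess with M-MDSC supernatant at 13.0%.

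**Figure D2:**
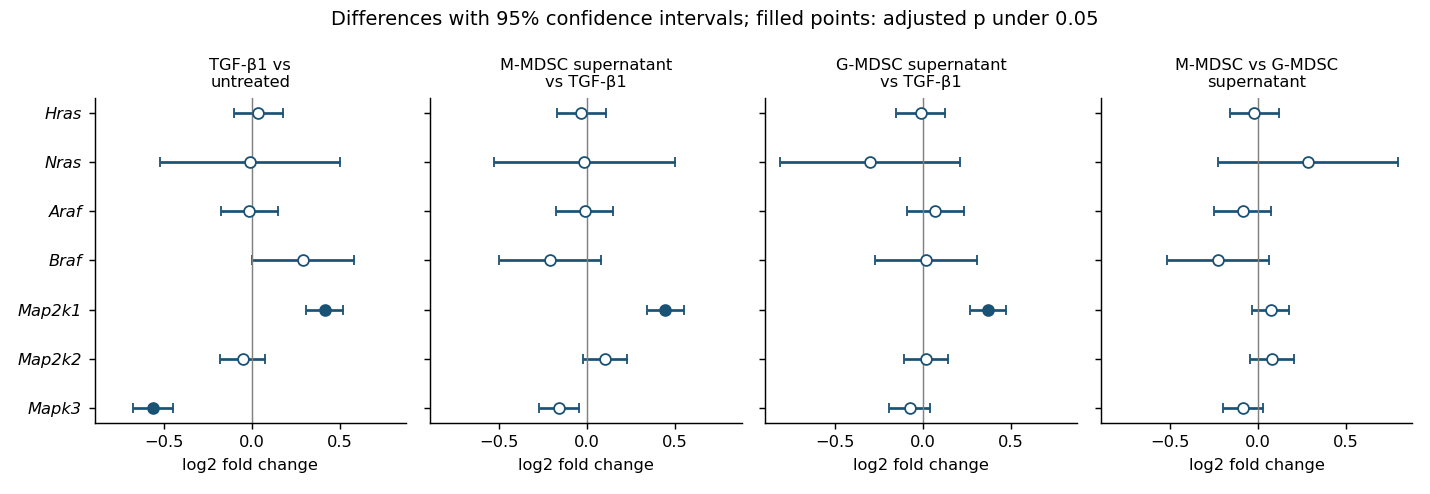
Log2 fold change (horizontal axis) of the 7 cascade genes in 4 comparisons; bars are 95% confidence intervals, filled points have an adjusted p-value under 0.05 and the vertical line marks no change. Map2k1 lies at 0.41, 0.44 and 0.37 in the comparisons with TGF-β1, M-MDSC and G-MDSC supernatant, Mapk3 lies at -0.56 with TGF-β1, and between the supernatants every interval includes 0.

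The kidney tubule transcripts other than Cubn, the myeloid transcript Lyz2, S100a9 in 4 of the 6 supernatant libraries and, among MSC markers, Ly6a (higher) and Pdgfrb (lower) moved with the same groups as the supernatant step of Map2k1, and their part in it was not tested. Within the M-MDSC group, the library with the least kidney tubule signal, 12.5 FPKM, had 43.3 FPKM of Map2k1, and the library with the most, 79.1 FPKM, had 43.4. The step from untreated MSCs to TGF-β1 occurred at 0.361 to 0.593 FPKM of kidney tubule genes. In bulk RNA, a change in the share of cells that carry a transcript and a change in its level per cell cannot be told apart. Uchl4, on the opposite strand inside Map2k1, had 94 to 189 counts beside the 7046 to 13835 of Map2k1.

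**Figure D3:**
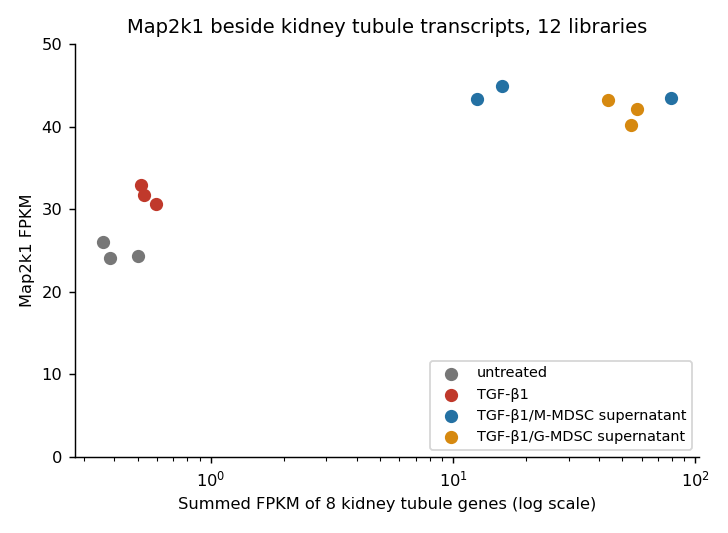
FPKM of Map2k1 (vertical axis, from 0) against the summed FPKM of 8 kidney tubule genes, mostly Kap where supernatant was added (horizontal axis, log scale), in each of the 12 libraries, coloured by group. Libraries without supernatant sit at 0.361 to 0.593 FPKM of tubule genes, and the 3 M-MDSC libraries span 12.5 to 79.1 FPKM of tubule genes at 43.3 to 44.9 FPKM of Map2k1.

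The stretch before the annotated start of Map2k1 is shown because its transcript changed in 5 of the 6 comparisons. It is the part of the RefSeq promoter window that lies upstream of the gene in the table, 224 bases on GRCm38.p6 at chr9:64253632-64253855, minus strand, read 5′ to 3′, with motif matches in capitals. RefSeq promoter windows were at hand for 6 of the 7 members, all but Mapk3.
Map2k1 promoter: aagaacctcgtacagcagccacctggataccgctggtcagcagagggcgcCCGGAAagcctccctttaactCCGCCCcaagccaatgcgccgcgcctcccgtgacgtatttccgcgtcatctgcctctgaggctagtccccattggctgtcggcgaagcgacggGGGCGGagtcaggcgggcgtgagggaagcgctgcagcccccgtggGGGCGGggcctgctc
The capitals mark 1 match to CCGGAA, a form of the ETS factor site, 174 bases before the start, and 3 matches to the GC box, GGGCGG. Matches were counted on both strands, and shorter forms of the ETS site, such as GGAA, were not searched. Among 27025 promoter windows of this length, 9.78% held CCGGAA and 29.1% the GC box. Neither the AP-1 site TGANTCA (6.33% of windows), the cAMP response element TGACGTCA (1.21%), the STAT site TTCNNNGAA (6.49%), the TEAD site CATTCC (11.6%) nor the SMAD sites GTCTAGAC (0.170%) and AGCCAGACA (0.244%) occurred in it. The stretch was 67.9% G or C, beside a median of 51.8% over all windows.

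Map2k2 (ENSMUSG00000035027, chr10:81105915-81133975, plus strand) had 26.2, 29.1 and 28.1 FPKM in untreated MSCs, 24.5, 25.8 and 27.0 with TGF-β1, 29.8, 27.3 and 27.0 with M-MDSC and 26.7, 27.4 and 25.7 with G-MDSC supernatant. The M-MDSC libraries all lay above the TGF-β1 libraries, the nearest by less than the rounding, where 24.0% of all genes tested did not overlap. The other groups overlapped. Its log2 fold change was -0.05 with TGF-β1 (-0.18 to 0.07, adjusted p = 0.540), 0.10 with M-MDSC (-0.03 to 0.23, adjusted p = 0.427) and 0.02 with G-MDSC supernatant (-0.11 to 0.15, adjusted p = 0.917). In the M-MDSC and G-MDSC comparisons the intervals of Map2k1, from 0.34 to 0.55 and from 0.27 to 0.48, lay wholly above those of Map2k2.

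Map2k1 therefore took a growing share of MEK transcripts. It made up 47.2 ± 1.01% of the summed FPKM of the pair in untreated MSCs, 55.2 ± 1.06% with TGF-β1, 61.0 ± 0.805% with M-MDSC and 61.1 ± 0.671% with G-MDSC supernatant. The shares of the last 2 groups overlapped. The sum itself was 52.6, 57.5, 71.9 and 68.5 FPKM in that order. Per kilobase of the principal transcripts the same shares were 34.6, 42.2, 48.1 and 48.2%, so Map2k1 exceeded Map2k2 with TGF-β1 only on the FPKM scale, while the rise in its share was there on both.

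**Figure D4:**
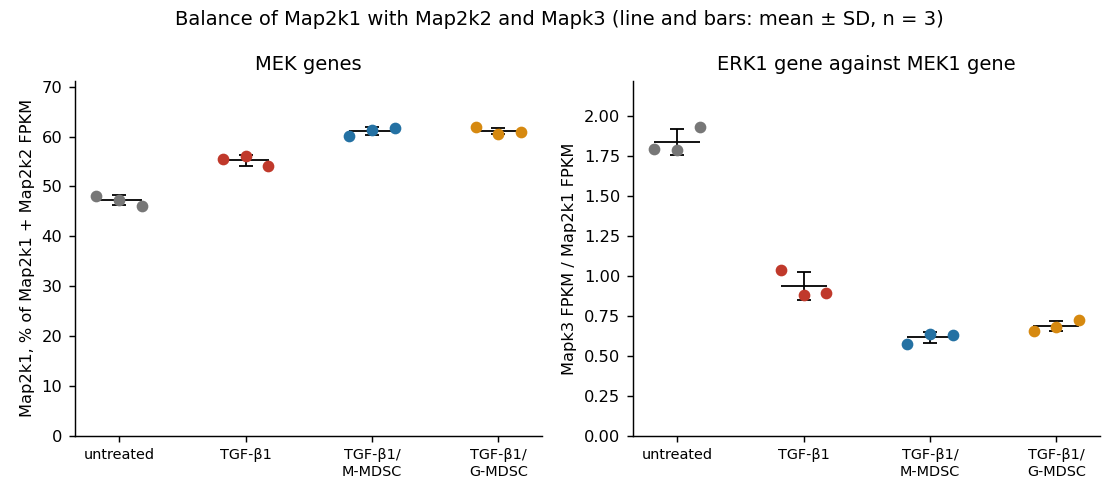
Left, Map2k1 as a percentage of the summed FPKM of Map2k1 and Map2k2; right, the ratio of Mapk3 to Map2k1 FPKM; both axes start at 0, points are the 12 libraries and black lines and bars are mean ± SD, n = 3. The Map2k1 share rises from 47.2 to 55.2% with TGF-β1 and to 61.0 and 61.1% with the supernatants, and the ratio falls from 1.84 to 0.936, 0.615 and 0.686.

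Mapk3 (ENSMUSG00000063065, chr7:126759601-126765819, plus strand) encodes Erk1, the kinase that MEK phosphorylates. It had 43.7, 46.7 and 46.4 FPKM in untreated MSCs and 31.8, 29.0 and 28.3 with TGF-β1. It had 25.9, 27.7 and 27.4 FPKM with M-MDSC and 28.3, 28.8 and 28.9 with G-MDSC supernatant. Every treated library lay below every untreated library. With TGF-β1 it fell by 0.56 on the log2 scale (standard error 0.051, adjusted p = 1.01e-05), to 0.678 times the untreated level with an interval of 0.626 to 0.733. All M-MDSC libraries lay below all TGF-β1 and all G-MDSC libraries, but neither difference passed the test. The log2 fold change was -0.16 against TGF-β1 (-0.27 to -0.05, an interval not adjusted for the number of genes, adjusted p = 0.133 from an unadjusted 0.0106 in edgeR) and -0.09 against G-MDSC supernatant (-0.20 to 0.03, adjusted p = 0.884). With G-MDSC supernatant it was -0.07 against TGF-β1 (-0.19 to 0.04, adjusted p = 0.542). Against untreated MSCs, Mapk3 was at 0.607 times the level with M-MDSC (adjusted p = 1.56e-06) and at 0.644 times with G-MDSC supernatant (adjusted p = 4.11e-06).

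The ratio of Mapk3 to Map2k1 FPKM was 1.84 without treatment, 0.936 after TGF-β1 alone, 0.615 with M-MDSC and 0.686 with G-MDSC supernatant. The ranges of the 4 groups did not overlap, with 0.575 to 0.639 for M-MDSC and 0.655 to 0.721 for G-MDSC supernatant, and no test was run on the ratio. Among genes tested, Map2k1 moved from the percentile 82.8 of FPKM in untreated MSCs to 87.1 with TGF-β1 and to 90.4 and 90.0 with M-MDSC and G-MDSC supernatant, while Mapk3 moved from 90.7 to 86.3, 84.1 and 85.5. The ratio of Nras to Hras was 1.44, 1.39, 1.41 and 1.16 ± 0.453, and that of Araf to Braf 3.23, 2.58, 2.93 and 2.65. The groups overlapped in both ratios, except that Araf to Braf was 2.78 to 3.03 in the M-MDSC libraries and 2.60 to 2.72 in the G-MDSC libraries.

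The genes whose log2(CPM + 1), counts scaled to library size with 1 added, on a log scale, followed Map2k1 most closely over the 12 libraries were Nbl1, a secreted BMP antagonist (Pearson r = 0.981), Baiap2l1, an adaptor of the actin cytoskeleton (0.980), Ino80e, a subunit of the INO80 chromatin remodeler (0.976), Ppa1, a pyrophosphatase (0.975), and F13a1, the coagulation factor XIII A chain (0.973). These coefficients rest mainly on the 4 group means and are given as a description. Nbl1 went from 18.5 to 20.8, 26.9 and 26.3 FPKM in the order untreated, TGF-β1, M-MDSC and G-MDSC supernatant. Ppa1 went from 65.3 to 84.7, 101.0 and 98.5 FPKM. F13a1 was low throughout, at 0.0913, 0.392, 1.31 and 1.46 FPKM.

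The lists of genes around the core were compared with TGF-β1 against untreated MSCs, where 34% of all genes were called, and with each supernatant against TGF-β1, where 4.78 and 5.56% were. Of 12 adaptors and Ras exchange factors 8 were tested, and with TGF-β1 the exchange factor gene Sos1 rose (5.86 to 6.43 FPKM, log2 fold change 0.19, adjusted p = 0.0260) and Rasgrp3, another exchange factor, fell (3.36 to 2.39 FPKM, -0.43, adjusted p = 0.00369). Of 10 genes for GTPase-activating proteins, which switch Ras off, 7 were tested and 2 rose with TGF-β1. These were Rasal2, from 0.652 to 1.51 FPKM (1.27, adjusted p = 0.0282), and Rasa1, from 7.79 to 9.86 FPKM (0.40, adjusted p = 0.00681). The shares called with TGF-β1 were 25% of the adaptors and exchange factors and 28.6% of the GTPase-activating proteins, beside 34% of all genes. On 8 and 7 genes tested, these shares are close to that background. Both lists had 0 calls in edgeR with either supernatant, where 4.78 and 5.56% of all genes were called, and between the supernatants.

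Of 14 Ras-related GTPase genes 12 were tested, and TGF-β1 raised 1 and lowered 6. Rras2, which encodes TC21, fell from 38.8 ± 1.29 to 18.6 ± 1.27 FPKM (log2 fold change -1.01, standard error 0.083, adjusted p = 4.75e-06) and stood at 19.0 and 18.3 FPKM with M-MDSC and G-MDSC supernatant. Rap2b fell by 0.54 and Mras by 0.36 on the log2 scale. Rap2a, a small GTPase of the Rap branch, fell with TGF-β1 from 11.2 to 9.23 FPKM (-0.22, adjusted p = 0.0344) and again with M-MDSC supernatant to 7.72 FPKM (-0.28, adjusted p = 0.0494), the 1 call of this list with a supernatant. With G-MDSC supernatant Rap2a had 8.16 FPKM (-0.20 against TGF-β1, adjusted p = 0.144).

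Of 17 scaffolds and direct regulators of RAF and MEK, 14 were tested, and TGF-β1 raised 3 and lowered 7 (median log2 fold change -0.19). Iqgap1, a scaffold that binds MEK and ERK, rose from 23.9 to 36.7 FPKM (0.68, adjusted p = 2.59e-05). Ksr1, the scaffold that joins RAF to MEK, had 5.10 ± 2.25 FPKM in untreated MSCs and 1.85 ± 0.111 with TGF-β1 (-1.40, adjusted p = 0.00936 in edgeR), and Cnksr3 fell by 0.75. Of the Spred family of inhibitors, Spred3 fell by 0.40, Spred2 rose by 0.36 from 17.4 to 21.5 FPKM, and Spred1 was not called. The MAP2K and MAPK genes of the parallel cascades had 1 call among 12 tested of 15, the atypical kinase gene Mapk6, which rose from 31.1 to 40.2 FPKM with TGF-β1 (0.43, adjusted p = 4.08e-05). With either supernatant and between them both lists had 0 calls in edgeR.

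Downstream of ERK, 11 of 13 genes for kinases and ETS factors that ERK phosphorylates were tested, of which TGF-β1 raised 4 and lowered 3. Rps6ka2, which encodes the kinase RSK3, rose from 3.76 to 7.68 FPKM (1.09, adjusted p = 1.07e-05), and Elk3 rose by 0.37, whereas Mknk2 fell from 32.2 to 21.1 FPKM (-0.55, adjusted p = 1.27e-05) and Ets1 from 7.35 ± 2.87 to 3.22 ± 0.606 FPKM (-1.13, adjusted p = 0.0362). The list had 0 calls with the supernatants. Of 15 transcripts known to be induced by ERK activity 12 were tested, and TGF-β1 raised 6 and lowered 5, in both directions within the list. Dusp5, a nuclear ERK phosphatase, rose from 25.0 to 48.5 FPKM (1.01, adjusted p = 3.51e-08), and Egr1, an immediate early transcription factor, fell from 46.8 FPKM (-0.79, adjusted p = 1.24e-06).

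With M-MDSC supernatant 0 of these 12 transcripts were called in edgeR, with a median log2 fold change of -0.13. With G-MDSC supernatant 2 rose. Ier3, an early response gene, had 177 FPKM with TGF-β1 and 249 with G-MDSC supernatant (0.47, adjusted p = 0.00168), and Fosl1, an AP-1 subunit, had 26.7 ± 0.880 and 32.6 ± 1.01 FPKM (0.26, adjusted p = 0.00843). With M-MDSC supernatant Ier3 had 210 ± 18.7 FPKM (0.23, adjusted p = 0.0950) and Fosl1 29.9 ± 1.48 (0.14, adjusted p = 0.161), and between the supernatants neither was called. Of 7 genes for the interleukin-15 receptor and its coupled factors, 3 passed the filter, and all 3 fell with TGF-β1. They were Stat5a (1.68 to 0.461 FPKM, -1.80, adjusted p = 1.10e-05), Jak1 (-0.36) and Stat5b (-0.30), and none of them was called with a supernatant.

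**Figure D5:**
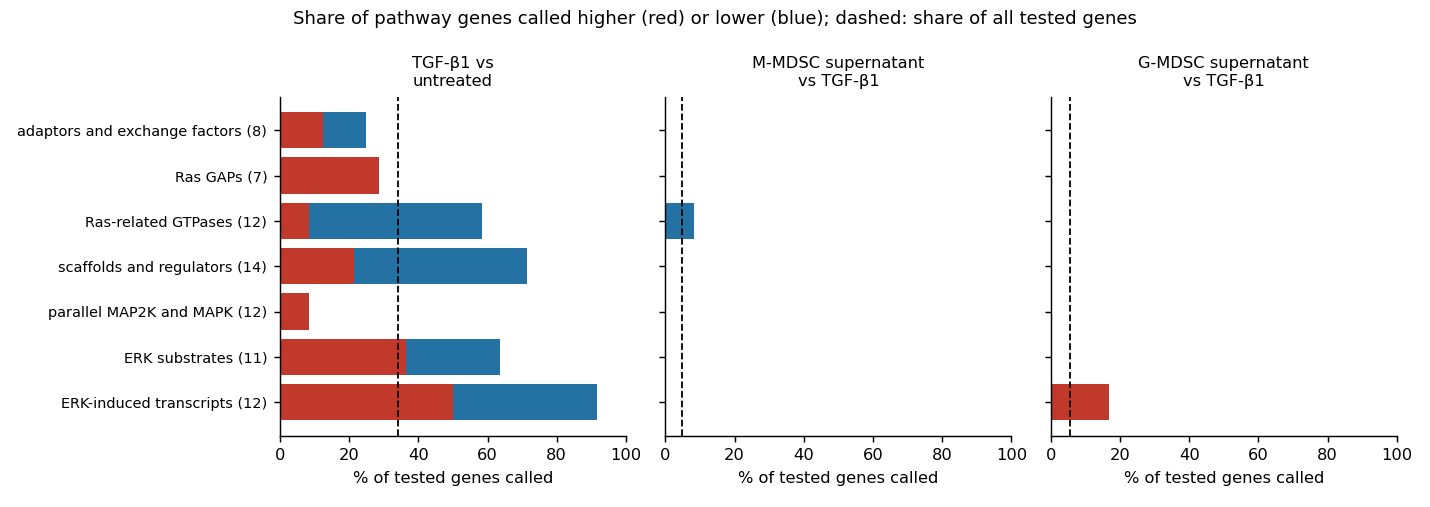
Percentage of the tested genes of 7 pathway lists (number tested in brackets) called higher (red) or lower (blue) at an adjusted p-value under 0.05 in 3 comparisons; the dashed line is the share of all genes tested, 34, 4.78 and 5.56%. With TGF-β1 the bars run from 8.33% for the parallel cascades to 91.7% for ERK-induced transcripts, and with the supernatants 2 of 14 bars are above 0.

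Over the whole pathway as the authors' table annotates it, 186 of 287 genes of the KEGG MAPK signaling pathway were tested. With TGF-β1, 47 were called higher and 59 lower, with M-MDSC supernatant 8 and 2, and with G-MDSC supernatant 8 and 4. The shares called were 57.0, 5.38 and 6.45%, against 34, 4.78 and 5.56% of all genes. Of 227 genes of the KEGG Ras signaling pathway 126 were tested, with 28 called higher and 38 lower with TGF-β1 and 3 and 2 with either supernatant, or 52.4, 3.97 and 3.97%. The pathways share genes with each other and with the lists above, and the median log2 fold changes of both lay between -0.06 and 0.05 in the 3 comparisons.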

How the data were processed

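Per the study's methods, the authors passed reads of 150 bases through fastp and aligned them by HISAT2 to GRCm38 (version 2.0.4 in the submitters' processing notes, which also name cutadapt 1.9 and StringTie 1.3.4d) and merged transcripts with gffcompare. The deposited table holds counts per gene, whose counting tool and strand setting are not given in the sources used here, and the FPKM that the authors calculated, with 1e-04 in place of 0. The deposited FPKM were used for levels and the deposited counts for tests.

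A gene was tested where 3 or more of the 12 libraries reached an FPKM of 1, which held for 12016 genes. Counts were scaled by TMM and compared in edgeR 4.0.16 (R 4.3.3) by its quasi-likelihood F test, two-sided, the 4 groups in a single fit, with Benjamini-Hochberg adjustment over all genes tested. The script was tested on simulated data. Alternatives used limma 3.58.1, DESeq2 1.42.0, other scaling, filters, groups, pseudocounts and libraries.

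The members and the gene lists were chosen with earlier results of these data known. Of each pathway list at most 4 genes were taken, those called in a supernatant comparison first and those called with TGF-β1 next, by size of change. Spred1 and Spred2 were added beside Spred3, after the values were seen. The 5 genes most like Map2k1 are also named. Genes named from the marker lists were picked after their values were seen. Sequences came from GENCODE M21 and RefSeq (GRCm38.p6). Values of some genes of the cascade are not reported here.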

Additional observations from a re-analysis of the deposited data

How the results depend on the processing

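Map2k1 and Mapk3 kept their direction and their calls under all 22 refits in every comparison in which they were called. Of these refits 21 were planned, and 1, which left out both libraries of low Nras, was chosen after seeing the data. Over them the log2 fold change of Map2k1 ranged from 0.34 to 0.45 with TGF-β1, 0.42 to 0.47 with M-MDSC and 0.34 to 0.40 with G-MDSC supernatant, and that of Mapk3 from -0.62 to -0.54 with TGF-β1. Of 924 refitted log2 fold changes, 0 calls were lost, and the 2 gained were those of Braf without untreated replicate 1. Of 52 sign changes, 0 were called and 50 were within 1 standard error. The other 2 were Araf without TGF-β1/G-MDSC replicate 3, and over the left-out replicates Araf ranged from -0.0053 to 0.12 against TGF-β1 and from -0.019 to 0.11 against untreated MSCs.

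By the study's rule 0 members were called in each comparison, since none changed by the fold it asks for, and 810, 262, 261, 66, 839 and 817 genes were called in all (TGF-β1, M-MDSC and G-MDSC supernatant, M-MDSC against G-MDSC, and each supernatant group against untreated MSCs), in place of 4082, 574, 668, 15, 4234 and 4187. For M-MDSC supernatant, 351 genes were called with only the groups compared in the fit and 364 without both libraries of low Nras, which also gave 398 for G-MDSC supernatant. Leaving out 1 replicate gave 355 to 586 genes for M-MDSC supernatant (355 without TGF-β1 replicate 2). Between the supernatants, DESeq2 called 121, limma on log2(FPKM + 1) 39 and the fit of only these groups 41. Leaving out 1 replicate gave 9 to 47 there, with 47 without TGF-β1/M-MDSC replicate 3, 26 without untreated replicate 3, 23 without TGF-β1 replicate 1 and 9 without TGF-β1/G-MDSC replicate 1. The cause of these differences was not tested.

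Deviations from the group means had a mean correlation of 0.0017 over the 18 pairs of same-numbered libraries, so the numbers were not taken to pair the libraries. A replicate block in the fit called 8 genes between the supernatants and changed no call of a member.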
